A study of Mus musculus with 11 samples.

Results

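The genes of the renin-angiotensin system were followed in embryonic day 17 mouse kidney of Robo2 homozygous and wild-type embryos. Robo2 is a receptor for the guidance ligand Slit. The list held 9 genes: Ren1, Agt, Ace, Agtr1a, Agtr1b, Agtr2, Atp6ap2, Mme and Enpep. Probe sets were taken from the platform annotation. It paired 12 probe sets with 8 of the 9 genes, out of 18193 genes in all, and none with Ren1, so renin itself was not analysed here. Where a gene had several probe sets, the brightest one by mean log2 intensity served as its main probe set.

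The 11 samples were hybridised as biotin-labelled cRNA, 1 Affymetrix array each. The source labels named 3 groups of Robo2 homozygous kidneys, those titled R2NB (3 arrays), R2E17 (1 array) and E17R2 (3 arrays), and 2 groups of wild-type kidneys, R2E17 (1 array) and E17R2 (3 arrays). All carried the tissue label E17 kidney. What the letters NB mean, what the homozygous allele is, the strain and the sex of the embryos are not stated in the labels. Free-text labels on the same samples speak of human brain, against the organism and tissue labels. Nothing says that the arrays came from separate embryos or whether kidneys were pooled, so p-values speak only of how these samples vary, and that variation may be technical. Arrays are named by the number in their title.

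The renin-angiotensin system is a cascade of peptides. Renin cuts angiotensinogen, the product of Agt, to angiotensin I, and angiotensin-converting enzyme, the product of Ace, turns this into angiotensin II. Neprilysin (Mme) and aminopeptidase A (Enpep) break angiotensin peptides down at the cell surface, and both are abundant on the brush border of the proximal tubule, where Ace also sits. Angiotensin II acts through the type 1 receptors Agtr1a and Agtr1b, which raise blood pressure and sodium retention, and the type 2 receptor Agtr2, which is prominent in fetal mesenchyme. Atp6ap2 encodes the (pro)renin receptor, an accessory protein of the vacuolar proton pump. In the mouse, loss of Agt, of Ace or of both type 1 receptors disturbs the growth of the renal papilla, and mice without Agtr2 can have malformed urinary tracts.

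Promoter sequences are shown for 3 genes that the results turn on: the brush border enzymes Enpep and Mme, whose main probe sets were lower in homozygous kidneys in both title series, and Agtr2, whose 2 differences had opposite signs. Each line holds the 250 bases before the RefSeq start of the gene, 5′ to 3′ on the coding strand, with capitals for a match to the TATA box TATAAA on either strand.
Enpep, GRCm38.p6, chr3:129332750-129332999, minus strand: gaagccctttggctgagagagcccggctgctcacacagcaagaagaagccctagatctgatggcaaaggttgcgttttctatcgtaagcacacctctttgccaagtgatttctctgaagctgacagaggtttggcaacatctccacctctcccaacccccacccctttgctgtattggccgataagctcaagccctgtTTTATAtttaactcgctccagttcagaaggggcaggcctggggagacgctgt
Mme, GRCm38.p6, chr3:63294961-63295210, plus strand: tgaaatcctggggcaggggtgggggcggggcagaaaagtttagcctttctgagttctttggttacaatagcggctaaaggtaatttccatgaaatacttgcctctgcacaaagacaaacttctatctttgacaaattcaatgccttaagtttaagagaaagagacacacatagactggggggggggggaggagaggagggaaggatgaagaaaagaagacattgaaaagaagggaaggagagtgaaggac
Agtr2, GRCm38.p6, chrX:21484374-21484623, plus strand: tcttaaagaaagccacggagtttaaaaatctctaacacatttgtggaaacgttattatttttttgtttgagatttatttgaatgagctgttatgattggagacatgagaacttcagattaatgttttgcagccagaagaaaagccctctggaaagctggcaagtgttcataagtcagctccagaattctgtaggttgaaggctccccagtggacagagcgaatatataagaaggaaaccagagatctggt
The TATA box letters were found once in the Enpep window, as their reverse complement with its first base 52 bases before the start, and not in these windows of Mme (the first of its listed starts) and Agtr2. Of 32851 promoter windows of the same length, 12.4% held them. The element GTTAAT, part of the motif of the proximal tubule factor HNF1, was in none of the windows of the 8 list members that the RefSeq table holds, against 6.43% of all windows. A match or its lack describes these letters only.

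The arrays fell into 2 separately scaled sets: the 5 arrays titled R2E17 or R2NB had median intensities of 47.1 to 53.4 and the 6 E17R2 arrays had 23.4 to 24.6. The genotype was therefore compared within a set, and levels set across the sets carry this scaling. Robo2 itself read 2.03, 2.37 and 2.33 log2 in E17R2 homozygous arrays 2, 8 and 9, and 3.13, 3.68 and 3.16 in wild-type arrays 1, 3 and 7. In R2NB arrays 3, 4 and 5 it read 3.28, 3.86 and 3.99, in the R2E17 homozygous array 3.37 and in the R2E17 wild-type array 3.96, and on all 11 arrays it was at or below percentile 24.4. R2NB arrays 4 and 5 were thus level with the R2E17 wild-type array, which goes against their homozygous label. Which part of the gene this dim probe set reads is not given, so it is a weak check of the labels. Kidney genes had a median percentile of 87.1 to 98.3 (7 genes), whereas brain genes had one of 27.5 to 31.9 (11 genes). Marker lists of other tissues were high on single arrays. Given as the list's mean log2 value relative to the mean of the set, smooth muscle genes were at 2.79 in E17R2 homozygous array 9 and between -0.94 and -0.39 in the rest of that set. Adrenal genes were at 1.72 and 1.54 in E17R2 wild-type arrays 1 and 3, and at 2.41 in R2NB array 4. Liver genes were at 2.18 in E17R2 wild-type array 7, 0.96 in homozygous array 2 and 3.54 in R2NB array 4. Gonad genes were at 1.48 in E17R2 homozygous array 2. The 3' probe set of Gapdh less its 5' one, a measure of RNA quality, was 0.70 in the R2E17 wild-type array and between -0.01 and 0.22 elsewhere.

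Homozygous and wild-type kidneys of the E17R2 series were compared first, 3 against 3. Ace, Mme, Enpep, Agtr1a and Atp6ap2 were lower on every homozygous array than on any wild-type array, by 0.15 to 0.51 on the log2 scale, while Agt, Agtr1b and Agtr2 overlapped. Of all 18193 genes, 7.24% were lower in this way and 5.05% were higher. No difference passed the test: limma with Benjamini-Hochberg adjustment over all genes called 0 genes (0.00%), 0 of the 8 members among them, and 1019 genes (5.60%), among them Ace, Agtr1a and Enpep, had an unadjusted p under 0.05. The median of the 8 members was -0.25, against -0.01 for all genes. In bulk kidney, fewer cells of a type and less RNA per cell cannot be told apart.

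**Figure D1:**
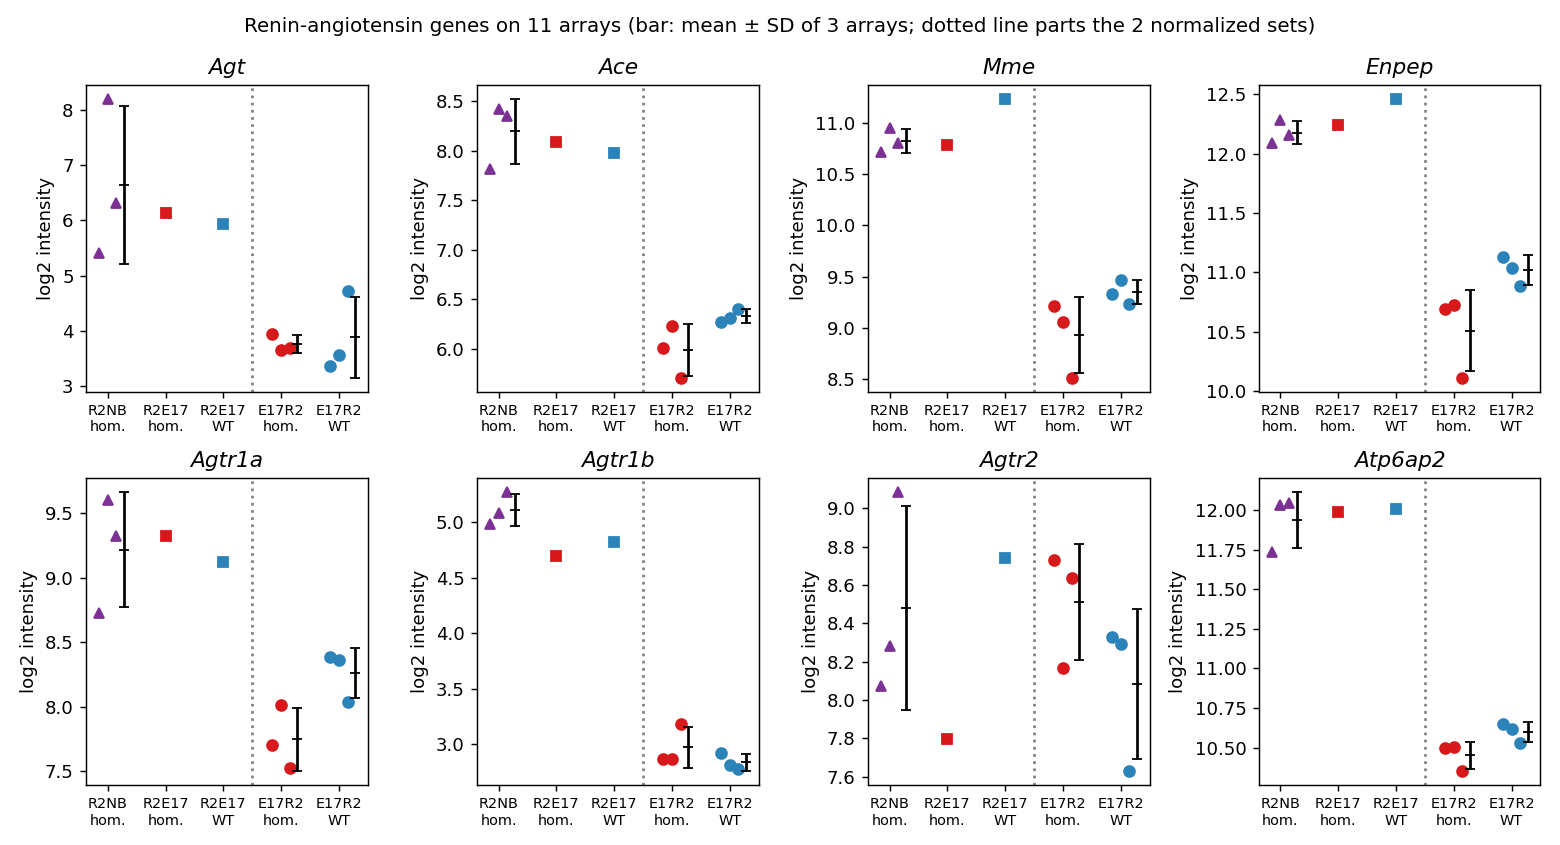
Log2 intensity of the 8 measured genes on each array, by group, with the mean ± SD of groups of 3 as black bars; the dotted line separates arrays that were scaled apart. For Ace, Mme, Enpep, Agtr1a and Atp6ap2 the 3 E17R2 homozygous arrays lie below the 3 E17R2 wild-type arrays, and Agt is highest on R2NB array 4, at 8.20.

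Agt, the only precursor of the angiotensins, had a dim signal whose spread lay within groups. Its log2 intensity was 3.96, 3.66 and 3.69 in E17R2 homozygous arrays 2, 8 and 9, and 3.37, 3.58 and 4.72 in wild-type arrays 1, 3 and 7. In the other set it was 5.41, 8.20 and 6.31 in R2NB arrays 3, 4 and 5, 6.13 in the R2E17 homozygous and 5.94 in the R2E17 wild-type array. The groups overlapped, and the highest array of each set, wild-type 7 and R2NB 4, was also the array with the highest liver list, the liver being the main source of circulating angiotensinogen. The E17R2 difference was -0.12 ± 0.34 (SE, limma adjusted p = 0.96), and without wild-type array 7 it was 0.30. Alb, the albumin gene, read 12.63 in E17R2 wild-type array 7 and 13.76 in R2NB array 4, against at most 11.45 on the other 9 arrays. The summed intensity of the 11 liver genes was 2047 to 7591 in E17R2 homozygous and 2449 to 15890 in wild-type arrays, 5648 to 48755 in R2NB arrays, 6904 in the R2E17 homozygous and 5430 in the R2E17 wild-type array, and the 11 genes all lay below the median gene in the E17R2 comparison. On the arrays with the highest liver lists (E17R2 wild-type 7, R2NB 4 and E17R2 homozygous 2), 0 of the 11 were among the dimmest 25% of genes. The part of liver tissue in the Agt values was not tested. Over the 11 arrays and relative to the mean of each set, the genes with values nearest to Agt were Ctsg, which encodes the granule protease cathepsin G (root mean square difference 0.19 log2), and the cytochrome P450 genes Cyp2c68 (0.24) and Cyp2d10 (0.25).

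**Figure D2:**
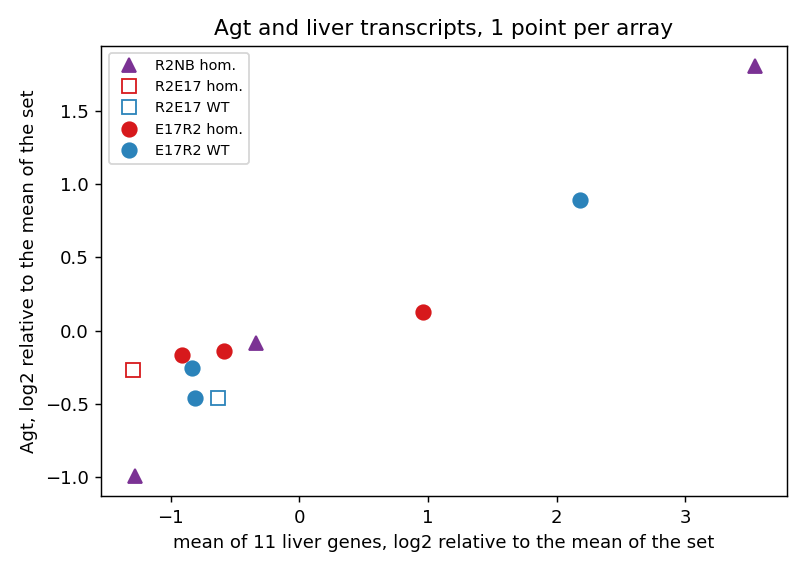
Each point is 1 array, with the mean log2 of 11 liver genes relative to the mean of its set on the horizontal axis and Agt relative to the mean of its set on the vertical axis. R2NB array 4 (3.54 for the liver genes) and E17R2 wild-type array 7 (2.18) have the highest Agt of their sets.

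The enzymes that make and break angiotensin II all read lower on the E17R2 homozygous arrays by their main probe sets, without passing the test. Enpep read 10.69, 10.72 and 10.11 in homozygous arrays 2, 8 and 9, and 11.13, 11.04 and 10.88 in wild-type arrays 1, 3 and 7. Mme read 9.22, 9.06 and 8.51 in homozygous arrays, and 9.34, 9.47 and 9.24 in wild-type arrays. Ace read 6.01, 6.23 and 5.71 in homozygous arrays, and 6.27, 6.31 and 6.40 in wild-type arrays. For each of the 3 genes array 9 was the lowest and the groups did not overlap, although homozygous array 2 came close to wild-type array 7 for Mme, and homozygous array 8 to wild-type array 1 for Ace.

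Enpep averaged 10.51 ± 0.34 in homozygous and 11.02 ± 0.13 in wild-type kidneys (SD, n = 3 each), a difference of -0.51 ± 0.18 (SE) and a fold of 0.704. Mme averaged 8.93 ± 0.37 in homozygous and 9.35 ± 0.12 in wild-type kidneys (SD, n = 3 each), with a difference of -0.42 ± 0.19 (SE). Ace averaged 5.98 ± 0.26 in homozygous and 6.33 ± 0.07 in wild-type kidneys (SD, n = 3 each), with a difference of -0.34 ± 0.14 (SE). The limma adjusted p was 0.84 for all 3. Array 9, which had the high smooth muscle list, also had the lowest proximal tubule list, at -0.999 relative to its set, against -0.08 and 0.03 in homozygous arrays 2 and 8 and 0.27 to 0.43 in wild-type arrays. Without array 9 the differences were -0.31 for Enpep, -0.21 for Mme and -0.21 for Ace. All 5 members stayed lower on the remaining homozygous arrays than on any wild-type array, which leaving out an array cannot change. On those arrays 10.6% of all genes were lower in this way.

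A second probe set did not separate the groups where a gene had one. For Ace the other probe set averaged 5.76 in homozygous and 5.71 in wild-type arrays, a difference of 0.05. For Mme the other, dimmer probe set gave -0.30, with overlap. For Atp6ap2 the other 2 gave -0.11 and -0.07, with overlap. The 5 members without overlap are therefore a count over main probe sets. With all probe sets of a gene averaged, Agtr1a and Enpep, which have 1 probe set each, were the only members without overlap.

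The other brush border enzymes followed the same order in part. Of 12 measured genes of that list, 9 lay below the median gene, 5 had every homozygous array below every wild-type array (all genes, 7.24%), and 0 passed limma's adjusted threshold, where 4 had an unadjusted p under 0.05. The list median was -0.24. Dpep1, which encodes the renal dipeptidase, differed by -0.47 ± 0.12 (SE), and Alpl, which encodes alkaline phosphatase, by -0.33 ± 0.10. Mep1a, a subunit of the metalloprotease meprin, differed by -0.71 ± 0.24 (SE), the peptidase gene Dpp4 by -0.65 ± 0.25 and Anpep, which encodes aminopeptidase N, by -0.57 ± 0.24, all at a limma adjusted p of 0.84. Without homozygous array 9, Mep1a was at -0.43, Dpp4 at -0.35 and Anpep at -0.28, whereas Dpep1 was at -0.42 and Alpl at -0.29. Proximal tubule markers were below the median gene in 15 of 15 cases and lower without overlap in 12 (all genes, 7.24%), and their summed intensity was 1828 to 3809 in homozygous and 4477 to 5202 in wild-type arrays. Endothelial markers, Ace being also an endothelial gene, were below the median gene in 11 of 12 cases and lower without overlap in 7. Their summed intensity was 3191 to 4108 in homozygous and 4442 to 4686 in wild-type arrays, with array 9 again the lowest. The 7 measured kidney genes were all below the median gene too, with a list median of -0.34, and 1 was lower without overlap. Their summed intensity was 4054 to 6571 in homozygous and 7129 to 7266 in wild-type arrays. The part of proximal tubule, endothelial or general kidney content in the enzyme values was not tested.

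The angiotensin receptors did not share a direction. Agtr1a read 7.71, 8.01 and 7.53 in E17R2 homozygous arrays 2, 8 and 9, and 8.38, 8.36 and 8.04 in wild-type arrays 1, 3 and 7. Agtr2 read 8.73, 8.17 and 8.63 in homozygous arrays, and 8.33, 8.29 and 7.63 in wild-type arrays. Agtr1a separated the groups narrowly, with homozygous array 8 just below wild-type array 7, whereas Agtr2 overlapped. The difference was -0.51 ± 0.16 (SE) for Agtr1a, a fold of 0.701, and 0.43 ± 0.23 (SE) for Agtr2, both at a limma adjusted p of 0.84. Without wild-type array 7 the Agtr2 difference was 0.20, and over both title series in 1 fit it was 0.083. Agtr1b, the type 1 receptor gene of the rodent adrenal, lay between percentiles 9.93 and 16.1 of the E17R2 arrays. It averaged 2.98 ± 0.18 in homozygous and 2.84 ± 0.08 in wild-type kidneys (SD, n = 3 each), with a limma adjusted p of 0.853. It read 2.87, 2.87 and 3.19 in homozygous arrays 2, 8 and 9, and 2.92, 2.82 and 2.78 in wild-type arrays 1, 3 and 7, of which arrays 1 and 3 had the high adrenal lists. Agtr1a was the highest of its set on the arrays with the high adrenal lists, E17R2 wild-type arrays 1 and 3 and R2NB array 4 (9.61). The adrenal list was at -0.15, -1.17 and -0.92 in E17R2 homozygous arrays 2, 8 and 9, an order that Agtr1a did not share. The part of adrenal tissue in the Agtr1a values and the dim Agtr1b values was not tested. Atp6ap2, at or above percentile 96.4 everywhere, read 10.50, 10.50 and 10.35 in homozygous arrays and 10.65, 10.62 and 10.53 in wild-type arrays, a difference of -0.15 ± 0.09 (SE, limma adjusted p = 0.84).

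The difference between Agtr2 and Agtr1a on the same array shows whether the receptor probe sets differed unequally, since scaling of an array cancels. Agtr2 minus Agtr1a was 1.02, 0.15 and 1.10 log2 in E17R2 homozygous arrays 2, 8 and 9, and -0.06, -0.07 and -0.41 in wild-type arrays 1, 3 and 7. Every homozygous array was above every wild-type array, with means of 0.76 ± 0.53 over the homozygous and -0.18 ± 0.20 over the wild-type arrays (n = 3 each, SD) and a difference of 0.94. Agtr1a alone had already separated these groups, so the lack of overlap is no separate result. Its share over all pairs of genes was not counted. The 2-sided exact permutation p for the difference was 0.1, the smallest that 3 against 3 allows, so this design could not reach 0.05. In the R2E17 pair the order was the opposite, with -1.53 in the homozygous and -0.39 in the wild-type array, a difference of -1.14. R2NB arrays 3, 4 and 5 had -0.66, -1.33 and -0.24. The high values in E17R2 came from homozygous arrays 2 and 9, which had the high gonad and smooth muscle lists. The parts of adrenal, gonad and smooth muscle tissue in this difference were not tested. These are values of 1 probe set per gene and do not say which receptor transcript was the more abundant.

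**Figure D3:**
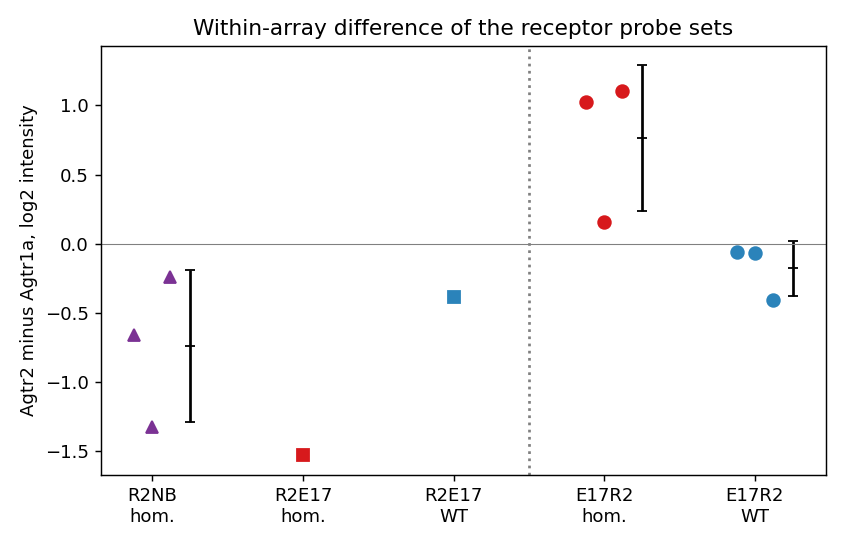
Agtr2 minus Agtr1a log2 intensity on each array by group, with the mean ± SD of groups of 3 as black bars; the dotted line separates arrays that were scaled apart. The 3 E17R2 homozygous arrays (0.15 to 1.10) lie above the 3 wild-type arrays, and the R2E17 homozygous array (-1.53) lies below its wild-type partner (-0.39).

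The R2E17 pair, 1 homozygous and 1 wild-type array, gave a separate look at the genotype, with no replicate check. Mme and Enpep were lower in its homozygous array as in E17R2, while Agtr2 was lower there and Ace and Agtr1a were slightly higher. Mme had 10.78 in the homozygous and 11.24 in the wild-type array (difference -0.45), although its dimmer probe set gave 0.68. Enpep had 12.24 in the homozygous and 12.46 in the wild-type array (difference -0.22). Agtr2 had 7.80 in the homozygous and 8.74 in the wild-type array, a difference of -0.95 and the largest of the 8 members in this pair. Ace differed by 0.11, Agtr1a by 0.19, Agt by 0.19, Agtr1b by -0.13 and Atp6ap2 by -0.02. Relative to the median gene, 0 of the 8 members were over 1 log2 lower, as were 0.709% of all genes, and 0 were over 1 log2 higher, as were 1.45%. The other brush border enzymes leaned the other way from Mme and Enpep in this pair, with a list median of 0.19 and 3 of 12 below the median gene: Mep1a differed by 0.59, Dpep1 by 0.39 and Anpep by 0.27. The wild-type array of the pair was the one with the Gapdh value of 0.70 given above, and its proximal tubule list was at -0.50 relative to its set, against 0.29 in the homozygous array. The part of RNA quality in these differences was not tested.

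**Figure D4:**
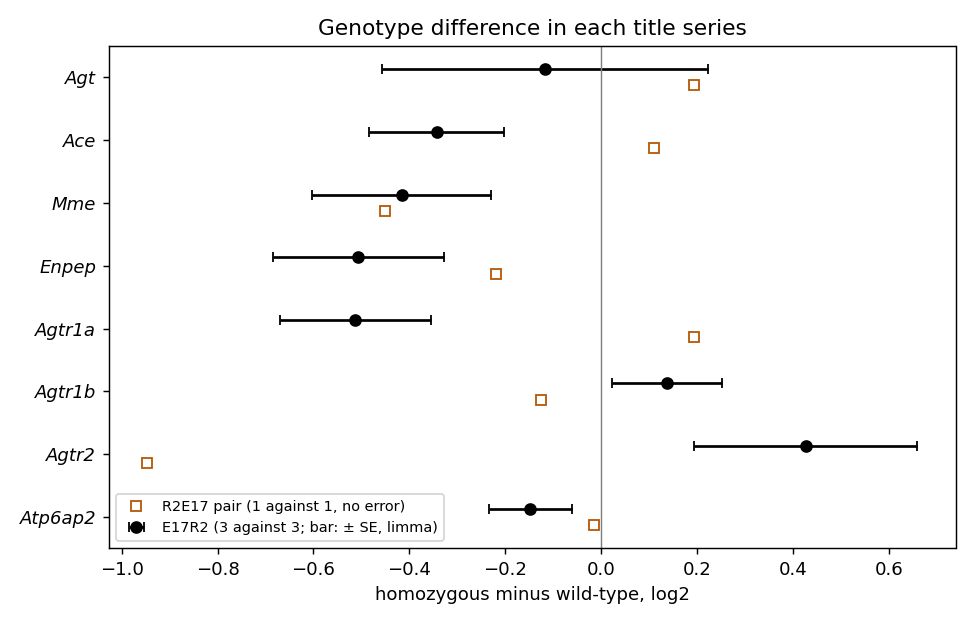
Homozygous minus wild-type log2 difference of each gene in the E17R2 series (filled circles, ± SE from limma, 3 against 3) and in the R2E17 pair (open squares, 1 against 1). Mme and Enpep lie below 0 in both, and Agtr2 is at 0.43 in E17R2 and -0.95 in the pair.

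The difference between the 2 genotype differences was tested in a model with 1 mean per group over all 11 arrays, in which the single R2E17 arrays are assumed to vary like the groups of 3. For Agtr2 it was -1.37 ± 0.59 (SE, limma adjusted p = 0.441), and for the other 7 members the limma adjusted p was 0.622 to 0.989. Over all genes 3 passed (0.0165%) and 0 of them was a member. These were Ang, Rpgrip1 and Nat8f2, named after their values were seen; Ang encodes the ribonuclease angiogenin and is no gene of the angiotensin cascade. An unadjusted p under 0.05 was found for 2015 genes (11.1%), Agtr2 among them.

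The R2E17 and R2NB arrays were then set against the E17R2 arrays, relative to the median gene, which was 1.02 higher in these 5 arrays. By main probe sets, Agt, Agtr1b, Ace and Mme had the larger shifts upwards and only Agtr2 was below. These 2 sets were scaled apart, so the values are descriptions with no test. The shift itself depended on level, with a median of 0.60 among the 4549 dimmest genes and 1.11 among the 4548 brightest. Agt was 1.54 higher than the median gene, Agtr1b 1.04, Ace 0.95, Mme 0.73, Enpep 0.46, Atp6ap2 0.41 and Agtr1a 0.19, whereas Agtr2 was at -0.93. Of the 8 members, 2 were over 1 log2 higher, as were 3.32% of all genes, and 0 were over 1 log2 lower, as were 2.45%. After quantile normalization of all 11 arrays together, Agtr2 was at -1.09, Agtr1b at 1.24 and Agtr1a at 0.03, so no member had the other sign. Other probe sets moved some of these values: Ace was at 0.33 and Mme at 1.52 by their second probe set, and 1 of the 3 Atp6ap2 probe sets was at -0.19. With probe sets averaged, Mme was at 1.16.

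On the scale of percentiles within an array, Agtr2 lay at 53.4 to 73.2 on the R2E17 and R2NB arrays, against 69.1 to 84.6 on the E17R2 arrays. Agtr1b lay at 24.6 to 29.4 on the R2E17 and R2NB arrays, against 9.93 to 16.1 on the E17R2 arrays. Agtr1a, with 67.4 to 80.8 on the R2E17 and R2NB arrays and 68.5 to 80.3 on the E17R2 arrays, did not separate them, and Agtr2 overlapped between them. With each array centred on its median gene, Ace, Agtr1b and Mme were higher on all 5 arrays than on any of the 6, as were 12.4% of all genes, and 0 members were lower on all 5, against 30.2% of all genes.

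The brush border enzymes among the members, Mme, Ace and Enpep, lay on the opposite side of the median gene from Agtr2 in this contrast. The differences below pair members already seen above it with the one seen below, so a lack of overlap is no separate result. No share of all genes was taken for such differences. Taken singly after centring, 12.4% of all genes were higher and 30.2% lower on all 5 arrays. Mme minus Agtr2 ranged from 1.72 to 2.99 over the R2E17 and R2NB arrays and from -0.12 to 1.61 over the E17R2 arrays, with no overlap. Ace minus Agtr2 ranged from -0.76 to 0.29 over the R2E17 and R2NB arrays and -2.93 to -1.23 over the E17R2 arrays, also with no overlap, while Enpep minus Agtr2 was 3.07 to 4.45 over those 5 arrays, against 1.48 to 3.25 over the E17R2 arrays, and overlapped. Of the 12 other brush border enzymes 10 were above the median gene, and 8 were over 1 log2 higher in the set of 5 relative to it (list median 1.30). Of 15 proximal tubule genes 12 were over 1 log2 higher in this way, with a median of 2.04. Anpep was 2.19 higher, Alpl 1.89, Dpep1 1.71, the aminoacylase gene Acy3 1.51 and Mep1b, the other meprin subunit, 1.43. By their main probe sets Mme, Enpep and Ace were below the median of both lists, while the second probe set of Mme was above that of the brush border list. Stromal genes had a median of -0.21, with 2 of 12 above the median gene. With the R2E17 pair alone against the E17R2 arrays, Agtr2 was at -1.04, Mme at 0.86 and Agt at 1.19. Between the arrays labelled homozygous alone, Agtr2 was at -1.23. Scaling, RNA quality and what the title series stand for cannot be told apart here.

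**Figure D5:**
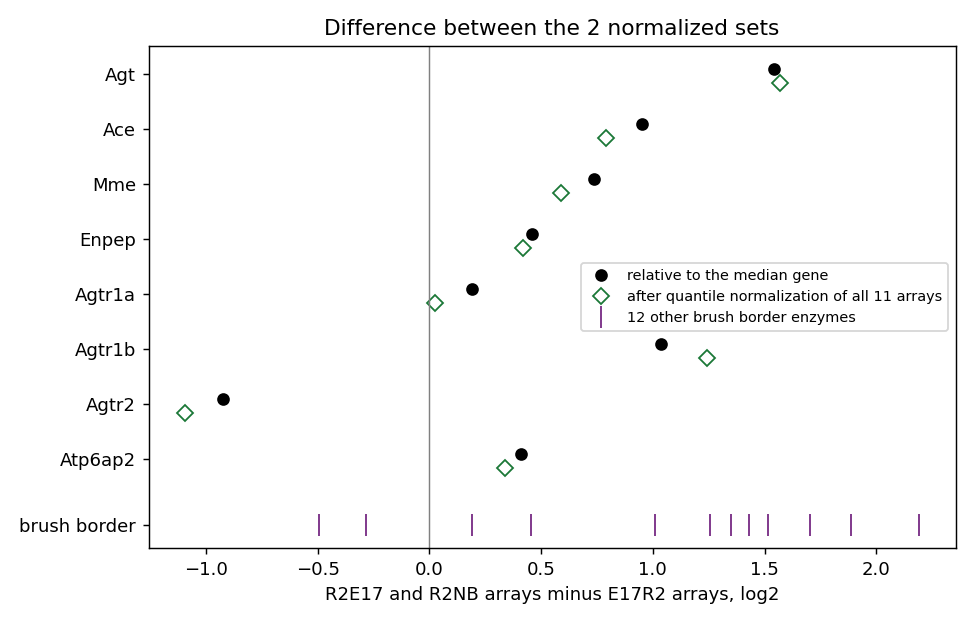
R2E17 and R2NB arrays minus E17R2 arrays, log2, for each gene relative to the median gene (filled circles) and after quantile normalization of all 11 arrays (diamonds), with 12 other brush border enzymes as ticks below. Agtr2 is the one member left of 0, and Agt, Agtr1b and Ace lie farthest to the right.

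Within the set of 5, the R2NB arrays were compared with the R2E17 homozygous array. They share the genotype and tissue labels. Robo2 in R2NB arrays 4 and 5 goes against the homozygous label, but by a dim probe set that is a weak check, as given above. Of the members, Ace, Agtr1a, Atp6ap2, Enpep and Mme lay within 0.11 of the single array by their R2NB means. Agtr2 read 8.08, 8.28 and 9.08 in R2NB arrays 3, 4 and 5, against 7.80 in the R2E17 homozygous and 8.74 in the R2E17 wild-type array. Agtr1b read 4.99, 5.08 and 5.27 in R2NB arrays against 4.69 in the R2E17 homozygous array. With 3 arrays against 1, the order alone says little, and its share over all genes was not counted. The difference was 0.68 ± 0.53 (SE, limma adjusted p = 0.974) for Agtr2 and 0.42 ± 0.14 (SE, limma adjusted p = 0.721) for Agtr1b. The Agtr2 difference was 0.38 without R2NB array 5, and 0.21 with both R2E17 arrays on the other side. For Agt it was 0.51 ± 1.40 (SE, limma adjusted p = 0.997), and without R2NB array 4, which had the high liver and adrenal lists, it was -0.27. Limma called 0 genes (0.00%) and 0 members, 1329 genes (7.31%) had an unadjusted p under 0.05, and the single array is assumed to vary like the R2NB arrays. A p that misses the threshold does not show that the groups are alike.

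Other genes of the pathway, 18 measured of a list of 21, were near the median gene in E17R2, 11 of them below it and 7 above, and their median was -0.04. None passed limma's adjusted threshold (0 of 18), and 2 had an unadjusted p under 0.05 (all genes, 5.60%). These were Nr3c2, the mineralocorticoid receptor through which aldosterone acts (-0.22 ± 0.09, SE), and Ctsa, a lysosomal carboxypeptidase (-0.19 ± 0.08). Without overlap, 3 genes were lower, Nr3c2, Ctsa and the peptidase gene Dpp3 (-0.13 ± 0.09), against 7.24% of all genes, and 1 was higher, the bradykinin receptor gene Bdkrb1 (0.14 ± 0.08), against 5.05%. Dpp3 and Bdkrb1 were named after their values were seen. Of the kallikrein-kinin genes in the list, Kng1, which encodes kininogen, differed by -0.92 ± 0.47 (SE), Klk1, which encodes tissue kallikrein, by -0.40 ± 0.23, and Bdkrb2, the other bradykinin receptor gene, by 0.44 ± 0.25, at a limma adjusted p of 0.84 each. Without homozygous array 9 they were at -0.53 for Kng1, -0.15 for Klk1 and 0.19 for Bdkrb2, and without wild-type array 7 Kng1 was at -0.49. Bdkrb2 was at 0.66 without homozygous array 8. Kng1 read 7.79 in E17R2 wild-type array 7 and 10.997 in R2NB array 4, the arrays with the highest liver lists, and kininogen is made in the liver as well. In the set of 5 relative to the set of 6, Klk1 was 2.32 and Kng1 2.14 above the median gene, Nr3c2 1.03 and Ctsa 0.95, with Bdkrb2 at -0.85. Bdkrb2 was dim, between percentiles 16.7 and 31.8 of the 11 arrays, and dim genes had the smaller shift between the sets.

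Genes of renin cells and their control, 13 measured of 16, had a median of 0.01 in E17R2, with 6 below and 7 above the median gene, and 0 passed in limma, nor did any have an unadjusted p under 0.05 (0 of 13). Ptgs2, the cyclooxygenase of the macula densa that stimulates renin release, read 5.18, 5.10 and 4.50 in E17R2 homozygous arrays and 4.63, 4.66 and 4.47 in wild-type arrays, with overlap. In the R2E17 pair it read 7.44 in the homozygous and 6.21 in the wild-type array, and in R2NB arrays 3, 4 and 5 it read 8.04, 6.07 and 6.13. Gja4, a connexin of vessel walls, differed by -0.25 ± 0.13 (SE) and the pericyte gene Rgs5 by -0.22 ± 0.12 in E17R2. Pde3b, a phosphodiesterase gene, was the only 1 of the 13 that was higher without overlap (0.19 ± 0.12), against 5.05% of all genes. Rbpj, the Notch effector of renin cell identity, differed by 0.15 ± 0.15. Both were carried by homozygous array 9: without it Pde3b was at 0.071 and Rbpj at -0.0015. Gja4 was at -0.12 without wild-type array 3, Rgs5 at -0.33 without wild-type array 7 and Ptgs2 at 0.56 without homozygous array 9 and 0.22 without homozygous array 2. Gja5, the connexin of renin cells, was dim, at 2.71 to 3.21 on the E17R2 arrays.

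By the same measure of likeness over the 11 arrays, relative to the mean of each set, the genes nearest to Agtr2 were the stromal matrix gene Postn (root mean square difference 0.20 log2), Lyve1 of lymphatic endothelium and some macrophages (0.21) and Ntrk3, a neurotrophin receptor gene (0.22). The stromal list was at 0.05, 0.05 and 0.33 relative to its set in E17R2 homozygous arrays 2, 8 and 9, and at -0.09, -0.08 and -0.26 in wild-type arrays 1, 3 and 7, and 7 of its 12 genes were higher without overlap (all genes, 5.05%). In the R2E17 pair it was at -0.23 in the homozygous and 0.16 in the wild-type array. Agtr2 and the stromal list were thus higher on average in E17R2 homozygous arrays and lower in the R2E17 homozygous array. Agtr2 was highest in E17R2 on homozygous array 2 (8.73), with the high gonad list, and array 9 (8.63), with the high smooth muscle list. Homozygous array 8 read 8.17, below wild-type arrays 1 (8.33) and 3 (8.29). The parts of stroma, gonad and smooth muscle in the Agtr2 values were not tested. Nearest to Agtr1a were the transporter gene Slc22a29 (0.09), the Wnt antagonist gene Frzb (0.13) and the keratin gene Krt23 (0.13). Around the mean of their set, Agt varied the most (SD 0.75 over 11 arrays), then Agtr2 (0.43) and Agtr1a (0.32), and Atp6ap2 the least (0.11).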

How the data were processed

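The authors deposited 1 table of intensity values for 45101 probe sets and 11 samples, which the submitters' processing notes credit to RMA, with no version named there. The values were on a linear scale and above 0, so log2 was taken with no pseudocount. Leaving out 64 controls, the platform annotation gave 1 symbol to 34945 probe sets, several to 932 and none to 9160. RefSeq (GRCm38.p6) supplied current symbols by Entrez identifier for 34741 probe sets, giving 18193 genes, each by its probe set with the highest mean. No 2 arrays were identical: any pair of R2E17 or R2NB arrays had 4633 to 6876 equal values, and any pair of E17R2 arrays 112 to 236.

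The test was limma 3.58.1 under R 4.3.3 (lmFit, eBayes, 2-sided, Benjamini-Hochberg over all genes, threshold 0.05), 1 mean per group. Simulated E17R2 data over 18193 genes, with 100 genes changed by each amount at once, gave back 85% of log2 changes of 1 and 99% of changes of 2. Simulated R2NB data of the same kind gave back 47% and 65%. Many genes changed at once ease the Benjamini-Hochberg threshold, so these shares do not hold for a few changed genes. The simulated noise was independent between genes and held no tissue signal on single arrays, so the real recovery may be lower. No change below 1 was simulated, and every measured member differed by less than 1 in E17R2. Robo2, at -1.08 in E17R2, was not called. The number of arrays limits the precision. The members, gene lists, tests and alternatives were chosen with earlier results of these data known; leaving out arrays for the genes of the lists was added after seeing the data. From the pathway, brush border and renin cell lists, the genes past the threshold or else the 5 with the smallest p, and the 5 with the largest difference between the sets, were named; from marker lists up to 3 with the highest mean.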

Additional observations from a re-analysis of the deposited data

Results flagged for a closer look

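The difference between the receptor probe sets, Agtr2 minus Agtr1a, ran in opposite directions in the 2 title series. It was 0.94 log2 higher in homozygous than in wild-type kidneys over the E17R2 arrays, with every homozygous array above every wild-type array, and -1.14 in the R2E17 pair of 1 against 1. Agtr1a alone already separated the E17R2 groups, so that lack of overlap is no separate result. The difference between the title series was not tested.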

How the results depend on the processing

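No member passed limma's adjusted threshold under any alternative run, with adjusted p values of at least 0.685 in E17R2 and at least 0.307 for R2NB. Without 1 E17R2 array at a time, 0 to 1 genes were called, the 1 gene being Mrap, without wild-type array 7. Leaving out an array cannot undo a lack of overlap, so the 5 members stayed lower each time. The share of all genes lower in this way was then 10.6% to 14.6%. With all probe sets of a gene averaged, 2 members had no overlap. For R2NB minus R2E17 homozygous, 2 genes were called with the spread shared over 11 arrays (Ang and Rpgrip1), and 0 with any 1 R2NB array left out. These 3 genes were named after their values were seen.

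Agtr2 minus Agtr1a ran from 0.77 to 1.24 with 1 E17R2 array left out, at exact permutation p values of 0.1 to 0.2 over its alternatives. Leaving out an array cannot undo its lack of overlap and raises the smallest p possible, so this range of p is no measure of stability. With 1 array left out, Agt in E17R2 ran from -0.38 to 0.30, positive without wild-type array 7. For R2NB minus R2E17 homozygous, Mme turned negative with probe sets averaged (-0.082) and against both R2E17 arrays (-0.19). With 1 R2NB array left out, Mme ran from -0.025 to 0.093, Agt from -0.27 to 1.12 and Ace from -0.0033 to 0.30, each negative without array 4, and Agtr1a from -0.30 to 0.14 and Atp6ap2 from -0.11 to 0.048, each positive without array 3. The causes were not tested. With probe sets averaged, Mme differed by 0.11 in the R2E17 pair. No paired analysis was possible because the E17R2 groups share no replicate number and the R2E17 groups hold 1 array each.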
